A study of Homo sapiens with 4 samples.

Results

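The 12 gene families described here are groups of protein-coding genes that multiplied by segmental duplication in primates: NPIPA, NPIPB, NBPF, GOLGA6, GOLGA8, TBC1D3, USP17L, SPDYE, POTE, PRAMEF, RGPD and ANKRD20A. Members were the protein-coding genes of the GENCODE annotation on the hg19 genome whose symbols start with one of these names, and a peak belonged to a member when its largest exon overlap on the same strand lay in that gene. This gave 160 members of 20163 protein-coding genes. They held 106 of the 8070 peaks listed for HL60 and 87 of the 8122 peaks listed for HL60/MX2. The bare prefix TBC1D3 also takes TBC1D30, TBC1D31 and TBC1D32, which are not members of the TBC1D3 family. These were left out and were counted only in an alternative with 163 genes.

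The study mapped N7-methylguanosine (m7G) in mRNA by MeRIP-seq, in which an m7G antibody pulls down RNA fragments and a peak is a region where they gather more reads than the input RNA does. HL60 is a human promyelocytic leukemia line, labelled as wild type, and HL60/MX2 is its drug-resistant derivative, known as a line selected with mitoxantrone. Both were grown in RPMI-1640, and their poly(A) RNA was decapped before fragmentation and enrichment, so the cap itself was removed from both. The lists came from 1 enriched library per cell line, so the lines were not tested against each other. The 95% intervals, by the exact Clopper-Pearson method, are those of counting error alone and treat genes and peaks as independent. Members of near-identical sequence may not be independent, so their intervals may be too narrow. The lists hold positions and scores without RNA levels, so the identity of the cells was not checked against marker genes. A gene without a peak cannot be told apart from a gene with little or no RNA. Each peak has a score from the authors, whose scale the sources used here do not give, and scores were set against others of the same list only. The HL60 scores had a median of 196.77 (range 50 to 3177.45), and the HL60/MX2 scores one of 259.66 (range 50.03 to 3100). The depth of each peak is unknown, as the lists give no read counts.

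Segmental duplications are long stretches of a genome that were copied to other places, in tandem or far apart, and whose copies can stay nearly identical. Gene families born this way differ in copy number between primates, and several, such as NBPF and NPIP, are known for rapid change in the human lineage. A short read from one copy can match the others as well, so its place in the genome cannot always be told from its sequence.

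The exons below carried peaks in several members, and they are printed from hg19 on the strand of the gene, 5′ to 3′, to show how alike the copies are. All are coding sequence of the longest coding transcript. Capitals mark the bases that differ from the copy printed just before it.

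The NBPF exon recurs within and between the genes of the family. It had a peak with the same start and end in both lists in both genes, at chr1:148266217-148266389 on the minus strand in NBPF20 (exon 93 of 111) and at chr1:16893674-16893846 on the minus strand in NBPF1 (exon 25 of 29). The copies differ at 4 of 173 bases, and every 50-base word of the NBPF20 copy occurs in at least 26 places of the genome.
NBPF20: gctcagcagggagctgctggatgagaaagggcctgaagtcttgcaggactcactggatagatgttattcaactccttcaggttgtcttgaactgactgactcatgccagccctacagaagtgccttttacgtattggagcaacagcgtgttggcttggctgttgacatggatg
NBPF1: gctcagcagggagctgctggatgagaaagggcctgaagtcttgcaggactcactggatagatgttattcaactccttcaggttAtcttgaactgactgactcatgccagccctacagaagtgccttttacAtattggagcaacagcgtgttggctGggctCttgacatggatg

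The NPIPB exon at chr16:28473995-28474190, minus strand, held the highest score of the families after POTEM, in NPIPB7 (exon 4 of 7, HL60). The copy in NPIPB2 at chr16:12027374-12027569, minus strand (exon 4 of 8), had a peak of the same 196 bp in HL60 and differs at 6 bases. All NPIPB7 peaks overlapped ENSG00000261832, a gene outside the families, by as many bases, so their gene is uncertain.
NPIPB7: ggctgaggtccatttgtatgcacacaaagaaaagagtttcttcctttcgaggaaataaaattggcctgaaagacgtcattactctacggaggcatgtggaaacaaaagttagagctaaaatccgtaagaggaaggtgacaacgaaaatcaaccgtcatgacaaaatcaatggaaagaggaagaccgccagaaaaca
NPIPB2: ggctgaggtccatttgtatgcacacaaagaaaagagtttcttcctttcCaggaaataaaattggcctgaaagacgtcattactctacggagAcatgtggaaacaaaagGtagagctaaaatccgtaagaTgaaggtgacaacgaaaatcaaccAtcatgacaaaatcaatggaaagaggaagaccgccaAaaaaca

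The NPIPA exon was peaked in HL60 in NPIPA8 at chr16:18421971-18422099, minus strand (exon 4 of 10), and with the identical sequence of 129 bp in NPIPA5.
NPIPA8: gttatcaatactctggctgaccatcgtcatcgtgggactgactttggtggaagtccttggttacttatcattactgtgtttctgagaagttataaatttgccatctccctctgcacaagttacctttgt

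Both GOLGA6 exons of 81 bp below had high scores in HL60. They lie at chr15:74370950-74371030 on the minus strand in GOLGA6A and at chr15:75554753-75554833 on the plus strand in GOLGA6C, exon 3 of 18 in each, and differ at 2 bases.
GOLGA6A: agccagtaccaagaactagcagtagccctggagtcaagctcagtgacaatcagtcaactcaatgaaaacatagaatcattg
GOLGA6C: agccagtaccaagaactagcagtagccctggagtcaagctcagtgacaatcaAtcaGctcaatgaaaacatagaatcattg

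The GOLGA6L exon of 107 bp carried peaks in 3 members in HL60/MX2 with identical sequence, and is shown from GOLGA6L26 at chr15:23575868-23575974, minus strand (exon 5 of 14), where HL60 had the same peak.
GOLGA6L26: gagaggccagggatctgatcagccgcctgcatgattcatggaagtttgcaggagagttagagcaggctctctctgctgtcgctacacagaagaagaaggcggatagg

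The GOLGA8 stretch of 68 bp likewise carried peaks with identical sequence in 3 members in HL60/MX2, and is shown from GOLGA8J at chr15:30378227-30378294, plus strand (exon 4 of 19).
GOLGA8J: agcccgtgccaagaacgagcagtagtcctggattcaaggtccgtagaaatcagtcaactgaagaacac

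The POTE exon of 174 bp encodes part of the ankyrin repeats. It held the highest score of all member peaks in HL60, in POTEM at chr14:19558991-19559164, plus strand (exon 3 of 15), and a peak over the whole matching exon in POTEI at chr2:131261019-131261192, minus strand (exon 3 of 15), with 5 differences.
POTEM: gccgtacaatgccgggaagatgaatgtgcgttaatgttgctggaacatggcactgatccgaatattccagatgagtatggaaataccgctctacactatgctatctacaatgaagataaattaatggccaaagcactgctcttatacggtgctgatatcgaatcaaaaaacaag
POTEI: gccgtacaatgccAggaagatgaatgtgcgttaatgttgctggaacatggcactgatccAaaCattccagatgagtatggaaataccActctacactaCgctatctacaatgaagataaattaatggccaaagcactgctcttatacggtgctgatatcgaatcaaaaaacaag

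A part of the matching exon was peaked in HL60/MX2 over 87 bp in POTEB2 at chr15:21066371-21066457, minus strand, and in POTEC at chr18:14537800-14537886, minus strand, exon 3 of 11 in each, with 3 differences.
POTEB2: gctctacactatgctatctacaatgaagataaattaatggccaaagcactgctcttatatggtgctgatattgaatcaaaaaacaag
POTEC: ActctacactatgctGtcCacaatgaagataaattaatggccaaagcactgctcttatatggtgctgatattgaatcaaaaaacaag

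The RGPD exon of 180 bp was peaked whole in HL60/MX2 in RGPD1 at chr2:87204703-87204882, plus strand (exon 16 of 23), and with identical sequence in RGPD2. The last 100 bp of the RGPD1 copy also made up a peak in HL60.
RGPD1: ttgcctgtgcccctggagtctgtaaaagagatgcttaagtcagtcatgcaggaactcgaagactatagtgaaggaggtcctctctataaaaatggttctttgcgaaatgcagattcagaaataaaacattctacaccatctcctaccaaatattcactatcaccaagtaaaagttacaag

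Of the 160 members, 64 (40.0%, 95% interval 32.3 to 48.0) had at least 1 peak in HL60, where 26.4% of all protein-coding genes had one. In HL60/MX2, 53 members (33.1%, 25.9 to 41.0) had a peak, beside 28.6% of all genes, which lies within the interval. Both lists held a peak in 38 members, where 12% of all genes had a peak in both. Peaks only in HL60 were found in 26 members, only in HL60/MX2 in 15 and in neither in 81. Of all 20163 genes, 5321 had a peak in HL60, 5757 in HL60/MX2 and 2421 in both. The members had less exon sequence, with a median of 3111 bp of merged exon per gene beside 4404 bp in the other genes. Among the 9160 other genes between the members' quartiles of exon length (1821.5 to 5495 bp), 21.3% were peaked in HL60 and 23.8% in HL60/MX2. Per Mb of merged exon, the density of member peaks was 169 in HL60 and 138 in HL60/MX2, beside 69.9 and 70.7 in the other genes. Most members with peaks had 1, namely 37 of 64 in HL60 and 33 of 53 in HL60/MX2. The families differed. In RGPD, 6 of 7 members had a peak in HL60 and 7 of 7 in HL60/MX2, while in SPDYE 0 of 16 had one in either list. RGPD members have 6830 to 14185 bp of merged exon, and the part of exon length in the families' shares was not tested. ANKRD20A has only 2 members, both with a peak in each list (interval from 15.8%, which holds the shares of all genes).

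**Figure D1:**
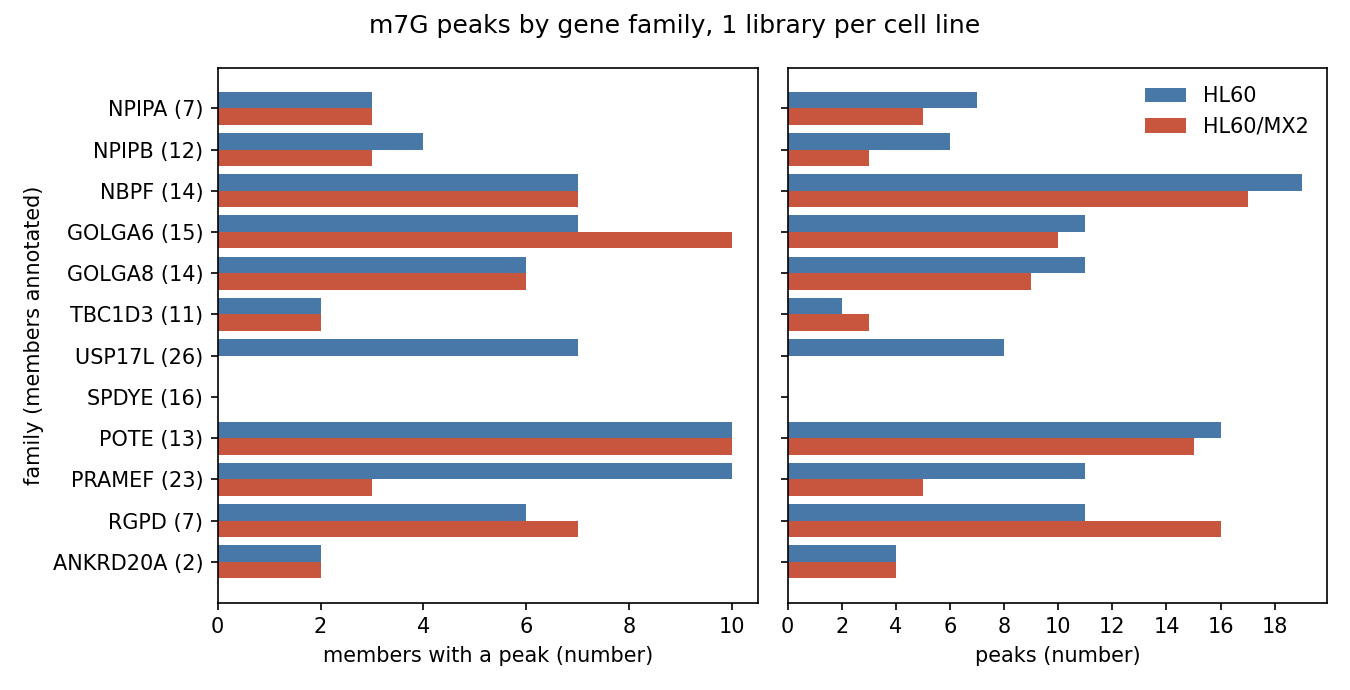
Members with at least 1 peak (left) and number of peaks (right) for each of the 12 families, with family size in the row labels, for HL60 and HL60/MX2, 1 library each. NBPF held the most peaks in both lists (19 and 17), USP17L had 8 in HL60 and 0 in HL60/MX2, and SPDYE had 0 in both.

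NBPF genes on chromosome 1 encode proteins built of repeated Olduvai domains, and their number of domains rose in the human lineage. Peaks lay in 7 of 14 members in each list, and 4 had peaks in both. NBPF20, with 111 exons in its longest coding transcript, held 4 peaks in HL60 with scores of 122.71 to 650.04 and 7 in HL60/MX2 with scores of 65.28 to 794.86. NBPF8 held 6 peaks in HL60, with scores of 93.15 to 829.38, and none in HL60/MX2. NBPF1 had 4 peaks in HL60 (196.77 to 705.03) and 1 in HL60/MX2 (235.68). NBPF12 had 2 in HL60 (57.9 and 160.42) and 2 in HL60/MX2 (79.71 and 194.61). NBPF4 had 1 in HL60 (176.18) and 1 in HL60/MX2 (1017.49). NBPF6 and NBPF15 had 1 peak each in HL60 only. NBPF10 with 1, NBPF11 with 3 and NBPF24 with 2 were peaked in HL60/MX2 only. The NBPF10 peak of 82 bp had the highest score of all member peaks in HL60/MX2, 2558.81, but it overlapped NOTCH2NLA and NOTCH2NLC by as many bases, so its gene is uncertain.

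NPIPA and NPIPB, on chromosome 16, encode the nuclear pore complex interacting proteins, named for the nuclear pore, and form the core of the duplications of that chromosome. NPIPA8 held 5 peaks in HL60, with scores of 73.26 to 1928.6, and 3 in HL60/MX2, with scores of 132.1 to 756.64. NPIPA5 had 1 peak in each list, at scores of 1280.75 in HL60 and 95.94 in HL60/MX2. NPIPA1 had 1 peak only in HL60 (140.51) and NPIPA7 had 1 only in HL60/MX2 (1191.28). Thus 3 of 7 NPIPA members had a peak in each list (42.9%, 9.90 to 81.6), and 2 were the same genes. The interval holds the shares of all genes, 26.4% and 28.6%. Among the 12 NPIPB members, NPIPB7 held 3 peaks in HL60, with scores of 170.85, 450.15 and 2642.37, and 1 in HL60/MX2 at 80.4. NPIPB2 scored 85.67 in HL60 and 553.88 in HL60/MX2, and NPIPB15 scored 252.34 and 826.4, in each case at different positions. NPIPB6 was peaked in HL60 only, at 429.42.

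GOLGA6 and GOLGA8, on chromosome 15, are golgins, coiled-coil proteins related to GOLGA2, which tethers vesicles at the Golgi. GOLGA6 had peaks in 7 of 15 members in HL60 (46.7%, 21.3 to 73.4) and 10 of 15 in HL60/MX2 (66.7%, 38.4 to 88.2), 5 of them in both. The HL60 interval holds the 26.4% of all genes, and that of HL60/MX2 lies above their 28.6%. GOLGA6A had 2 peaks in HL60, at 962.55 and 1244.93, and 1 in HL60/MX2 at 96.39. GOLGA6L1 had 2 in HL60, at 730.15 and 106.82, and 1 in HL60/MX2 at 494.82. GOLGA6L26 had 2 in HL60, at 476.55 and 549.21, and 1 in HL60/MX2 at 1906.62. GOLGA6B had 1 peak in each list (143.3 and 702.38), as did GOLGA6L6 (143.16 and 320.05). GOLGA6C, with 2 peaks at 626.82 and 1535.7, and GOLGA6L10, with 1, were peaked in HL60 only, while GOLGA6L2, GOLGA6L4, GOLGA6L9, GOLGA6L24 and GOLGA6L25 had 1 peak each in HL60/MX2 only. The GOLGA6L2 peak is the only member peak of at least 50 bp with no repeated word.

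In GOLGA8, 6 of 14 members had a peak in each list (42.9%, 17.7 to 71.1) and 4 had peaks in both. The interval holds the shares of all genes, 26.4% and 28.6%. Of the GOLGA8 peaks, 0 of 11 in HL60 and 0 of 9 in HL60/MX2 were shared. Their intervals, up to 28.5% and 33.6%, hold the shares of all listed peaks, 6.13% and 6.09%. GOLGA8M had 3 peaks in HL60 (68.74 to 287.97) and 2 in HL60/MX2 (324.63 and 806.28). GOLGA8J had 1 peak in HL60 (86.38) and 3 in HL60/MX2 (151.79 to 218.93). GOLGA8G had 2 peaks in HL60 (62.97 and 189.79) and 1 in HL60/MX2 (88.17), and GOLGA8T had 2 (56.19 and 235.87) and 1 (254.44). GOLGA8K and GOLGA8Q were peaked in HL60 only, and GOLGA8B and GOLGA8H in HL60/MX2 only.

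POTE genes encode ankyrin repeat proteins, named for expression in prostate, ovary, testis and placenta, and some of them end in an actin copy. Peaks were found in 10 of 13 members in each list, and 9 members had peaks in both. POTEM scored 3100 in HL60 and 467.25 in HL60/MX2, at another position. POTEF held 3 peaks in HL60 (343.24 to 658.35) and 1 in HL60/MX2 (787.5). POTEB2 held 1 in HL60 (121.57) and 3 in HL60/MX2 (135.99 to 568.9). POTEC scored 221.82 and 370.04 in HL60 and 1323.43 in HL60/MX2. POTEJ had 2 peaks in HL60 (343.24 and 367.5) and 2 in HL60/MX2 (122.34 and 179.09). POTEG had 2 (90.44 and 149.68) and 1 (79.91), and POTEI had 2 (341.28 and 676.69) and 1 (56.16). POTEE had 1 (238.92) and 2 (123.95 and 252.14), and POTEH had 1 (253.54) and 2 (533.29 and 1056.56). POTED was peaked in HL60 only and POTEB in HL60/MX2 only.

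RGPD genes on chromosome 2 are partial copies of RANBP2, a nucleoporin that binds RAN, joined to a GRIP domain as in GCC2. Peaks lay in 6 of 7 members in HL60 (85.7%, 42.1 to 99.6) and 7 of 7 in HL60/MX2 (interval from 59.0%), beside 26.4% and 28.6% of all genes. In 6 members both lists had peaks. In RGPD1 and RGPD2 alike, HL60 had 2 peaks and HL60/MX2 had 4, with RGPD1 at 124.91 and 377.04 in HL60 and 53.03 to 249.63 in HL60/MX2. RGPD2 scored 167.32 and 772.12 in HL60 and 252.6 to 297.85 in HL60/MX2, a narrow range. RGPD3 had 3 peaks in HL60 (101.45 to 150.72) and 1 in HL60/MX2 (91.55), and RGPD5 had 1 (112.89) and 1 (156.03). RGPD6 had 2 (283.53 and 438.33) and 2 (150.02 and 281.31), and RGPD8 had 1 (61.85) and 2 (76.56 and 565.29). RGPD4 had peaks in HL60/MX2 only, at 105.53 and 148.41. ANKRD20A1 and ANKRD20A3 on chromosome 9, ankyrin repeat genes, each had 2 peaks in each list. Their scores were 85.12 and 696.15 in HL60 and 165.11 and 489.97 in HL60/MX2 for ANKRD20A1, and 286.43 and 1546.43 in HL60 and 170.96 and 394.35 in HL60/MX2 for ANKRD20A3.

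PRAMEF genes on chromosome 1 are relatives of PRAME, a cancer-testis antigen with leucine-rich repeats. In HL60, 10 of 23 members had a peak (43.5%, 23.2 to 65.5), and in HL60/MX2 3 of 23 (13.0%, 2.78 to 33.6). Each interval holds the share of all genes in its list, 26.4% and 28.6%. PRAMEF15 had 1 peak in HL60 (686.79) and 3 in HL60/MX2 (252.14 to 1023.47), and PRAMEF6 had 1 in each (255.4 and 656.02). PRAMEF4 had 2 in HL60 only (101.45 and 127.11). PRAMEF1, PRAMEF5, PRAMEF10, PRAMEF11, PRAMEF17, PRAMEF18 and PRAMEF20 had 1 peak each in HL60 only, the highest in PRAMEF18 at 1476.13. PRAMEF14 had 1 in HL60/MX2 only (1045.68).

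USP17L genes encode ubiquitin-specific peptidases, which remove ubiquitin from proteins, and their 26 members have a single exon each, in tandem on chromosome 4 and on chromosome 8. Peaks lay in 7 of them in HL60 (26.9%, 11.6 to 47.8), close to the share of all genes, and in 0 of 26 in HL60/MX2, with an interval up to 13.2% beside the 28.6% of all genes. USP17L18 held 2 peaks, at 85.57 and 270.78, and USP17L12, USP17L15, USP17L19, USP17L20, USP17L22 and USP17L2 held 1 each. The highest were USP17L19 at 1802.71 and USP17L12 at 1683.5. TBC1D3 genes, on chromosome 17, encode proteins with a TBC domain, as found in regulators of RAB GTPases. In each list 2 of 11 members had a peak (18.2%, 2.28 to 51.8), an interval that holds the shares of all genes. TBC1D3 had 1 peak in HL60 (92.53) and 2 in HL60/MX2 (51.81 and 586.98), TBC1D3G had 1 in HL60 (236.22) and TBC1D3D had 1 in HL60/MX2 (528.06). The exons of all 11 overlap those of another TBC1D3 member. The TBC1D3 peaks overlapped TBC1D3L, and the TBC1D3D peak TBC1D3I, by as many bases, so their gene is uncertain. SPDYE genes encode Speedy proteins, which bind cyclin-dependent kinases. They had 0 of 16 members with a peak in either list, with an interval up to 20.6% beside 26.4% and 28.6% of all genes.

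Relatives outside the families were set beside them, with SMG1 and PKD1 added as neighbours of the NPIP duplications. Of these 11 genes (RANBP2, GCC2, GOLGA2, SPDYA, SPDYC, PRAME, PDE4DIP, USP6, ANKRD26, SMG1 and PKD1), 3 were peaked in HL60 (27.3%, 6.02 to 61.0) and 4 in HL60/MX2 (36.4%, 10.9 to 69.2). Both intervals hold the shares of all genes, 26.4% and 28.6%, but are too wide to place the 11 genes near them. Their exon sequence was not matched to the members and ran from 1042 bp in SPDYC to 37681 bp in PDE4DIP. PDE4DIP, a centrosomal protein with an Olduvai domain like those of NBPF, held 5 peaks in HL60 (196.77 to 798.35) and 6 in HL60/MX2 (72.81 to 3100), with 1 shared position. ANKRD26, taken as the relative of POTE, had 1 peak in each list, at 143.3 and 142.15. SPDYA had 1 in HL60 (65.03), and GCC2 had 1 (161.18) and USP6 2 (231 and 494.42) in HL60/MX2. RANBP2, GOLGA2, SPDYC, PRAME, SMG1 and PKD1 had none.

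Whole exons were then counted, since a peak that holds an entire exon has the exon's boundaries inside it. In HL60, 46 of the 106 member peaks held a whole annotated exon (43.4%, 33.8 to 53.4), beside 29.7% of all peaks assigned to a gene. In HL60/MX2, 34 of 87 did (39.1%, 28.8 to 50.1), beside 29.8%, which lies within the interval. All 7 NPIPA peaks in HL60 were of this kind, as were 10 of 19 NBPF, 8 of 16 POTE, 6 of 11 GOLGA6 and 6 of 11 GOLGA8 peaks. In HL60/MX2 the counts were 3 of 5 in NPIPA, 7 of 17 in NBPF, 5 of 15 in POTE, 4 of 10 in GOLGA6 and 5 of 9 in GOLGA8. RGPD had 4 of 11 and 5 of 16, PRAMEF had 1 in each list, and USP17L had 0 of 8, where each gene is 1 long exon. TBC1D3 had 0 of 2 and 0 of 3, with intervals up to 84.2% and 70.8%. The median exon was 119 bp in members and 133 bp in other genes, and its part in these counts was not tested. It was 95 bp in TBC1D3, 155 bp in NBPF and 158 bp in NPIPB, of whose 6 peaks in HL60 3 held a whole exon, 556.5 bp in PRAMEF and 1593 bp in USP17L.

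Most member peaks lay in coding sequence, 81.1% (72.4 to 88.1) in HL60 and 78.2% (68.0 to 86.3) in HL60/MX2, beside 59.9% and 58.1% in the other genes. The 3′UTR held 12.3% (6.69 to 20.1) and 11.5% (5.65 to 20.1) of member peaks, beside 19.7% and 17.1%. The 5′UTR held 4.72% (1.55 to 10.7) and 3.45% (0.717 to 9.75), beside 5.53% and 9.72%. These UTR intervals all hold the shares of the other genes. Exons outside the longest coding transcript held 1.89% (0.229 to 6.65) and 6.90% (2.57 to 14.4), beside 14.9% and 15.1%. The members' transcripts also had more coding sequence, with a median of 73.2% of the transcript beside 54.0% in the other genes, and its part in these shares was not tested.

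Peak scores of members reached the top of the HL60 list. Their median score was 246.3 in HL60, at a median percentile of 60.8 of that list (95% interval from ranks 48.0 to 75.3, which holds 50), and 252.6 in HL60/MX2, at a median percentile of 49.2 (39.0 to 58.8). In HL60, 17 of 106 (16.0%, 9.63 to 24.4) lay in the highest 5% of scores, a set that held 5.02% of all listed peaks. In HL60/MX2, 6 of 87 did (6.90%, 2.57 to 14.4), beside 5.01%, a share near the background. POTEM was one of 8 HL60 peaks with a score of exactly 3100, with 3 peaks of the list above. In HL60/MX2, 53 peaks stood at 3100, the highest score there, and none was a member's. In HL60, NPIPB7 ranked 15 and NPIPA8 ranked 25. USP17L19 (rank 32), USP17L12 (40), ANKRD20A3 (47), GOLGA6C (50), PRAMEF18 (54), NPIPA5 (74) and GOLGA6A (77) followed. Lower in the highest 5% lay a GOLGA6A peak of 2 bp at 962.55, NBPF8 at 829.38, RGPD2 at 772.12, GOLGA6L1 at 730.15 over 1203 bp, NBPF1 at 705.03, ANKRD20A1 at 696.15 over 14 bp and PRAMEF15 at 686.79. Those of HL60/MX2 were NBPF10 (2558.81), GOLGA6L4 (2314.12 over 995 bp), GOLGA6L26 (1906.62), GOLGA6L24 (1770.76), POTEC (1323.43) and NPIPA7 (1191.28). At the lower end, 2 member peaks lay in the lowest 5% in HL60, GOLGA8T at 56.19 and NBPF12 at 57.9. In HL60/MX2 there were 4, in TBC1D3 (51.81), RGPD1 (53.03), NBPF11 (54.22) and POTEI (56.16).

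**Figure D2:**
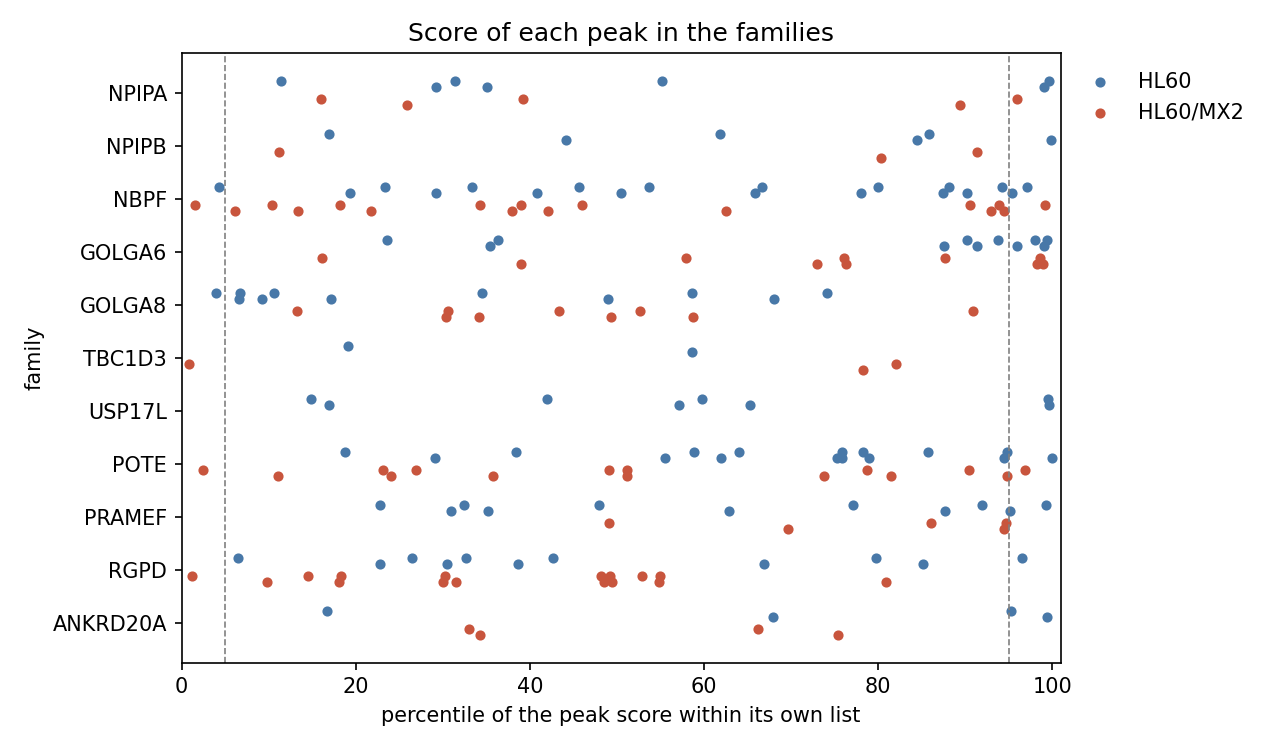
Score percentile of each member peak within its own list (0 to 100) for each family with a peak, HL60 and HL60/MX2, 1 library each; dashed lines stand at percentiles 5 and 95. In HL60, 17 of 106 points lie above the upper line, in NPIPA, NPIPB, NBPF, GOLGA6, POTE, RGPD, PRAMEF, USP17L and ANKRD20A, and in HL60/MX2 6 of 87 do.

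A position counted as shared when peaks of both lists had 1 bp or more in common on the same strand. Of the members' peaks, 16 of 106 in HL60 (15.1%, 8.88 to 23.4) and 16 of 87 in HL60/MX2 (18.4%, 10.9 to 28.1) were shared, where 6.13% and 6.09% of all listed peaks were. With an overlap of at least 50% of both peaks, 10 in each list were shared, 9.43% (4.62 to 16.7) and 11.5% (5.65 to 20.1), beside 3.52% and 3.50%. When both lists were cut to peaks at or above their median score, both peaks of a pair had to pass. Then 4 of 62 (6.45%, 1.79 to 15.7) and 4 of 41 (9.76%, 2.72 to 23.1) were shared, and these intervals hold the 3.79% and 3.77% of all such peaks. The double cut itself lowers the count, so these shares do not show how often high-scoring peaks were shared. The 16 pairs lay in 15 members. Their overlaps ran from 14 to 518 bp with a median of 110 bp. The same start and end were found in 6 pairs (37.5%, 15.2 to 64.6), beside 77 of the 495 pairs of the series (15.6%), which the interval just holds, and in each of the 6 the peak held a whole exon. These were NBPF1, with scores of 212.93 in HL60 and 235.68 in HL60/MX2, and NBPF20, with 650.04 and 192.74, both shown above. The others were GOLGA6L26 over 107 bp (549.21 and 1906.62), NPIPA8 over 108 bp (129.56 and 132.1), POTEE over 107 bp (238.92 and 123.95) and PRAMEF15 over 78 bp of 5′UTR (686.79 and 422.97). Because scores were compared only within a list, those of a pair stand side by side without a ratio.

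The other 10 pairs overlapped in part. NPIPB7 shared 518 bp (scores 450.15 and 80.4), GOLGA6L6 351 bp (143.16 and 320.05), POTEH 315 bp (253.54 and 533.29) and PRAMEF6 206 bp (255.4 and 656.02). RGPD6 shared 112 bp (438.33 and 150.02), RGPD1 100 bp (377.04 and 246.37), POTEI 41 bp (676.69 and 56.16) and RGPD5 33 bp (112.89 and 156.03). ANKRD20A1 shared 2 positions, over 279 bp (85.12 and 489.97) and 14 bp (696.15 and 165.11). The POTEI peaks, which have the same lower coordinate, stood at percentile 94.9 of the HL60 scores and at percentile 2.47 of the HL60/MX2 scores.

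**Figure D3:**
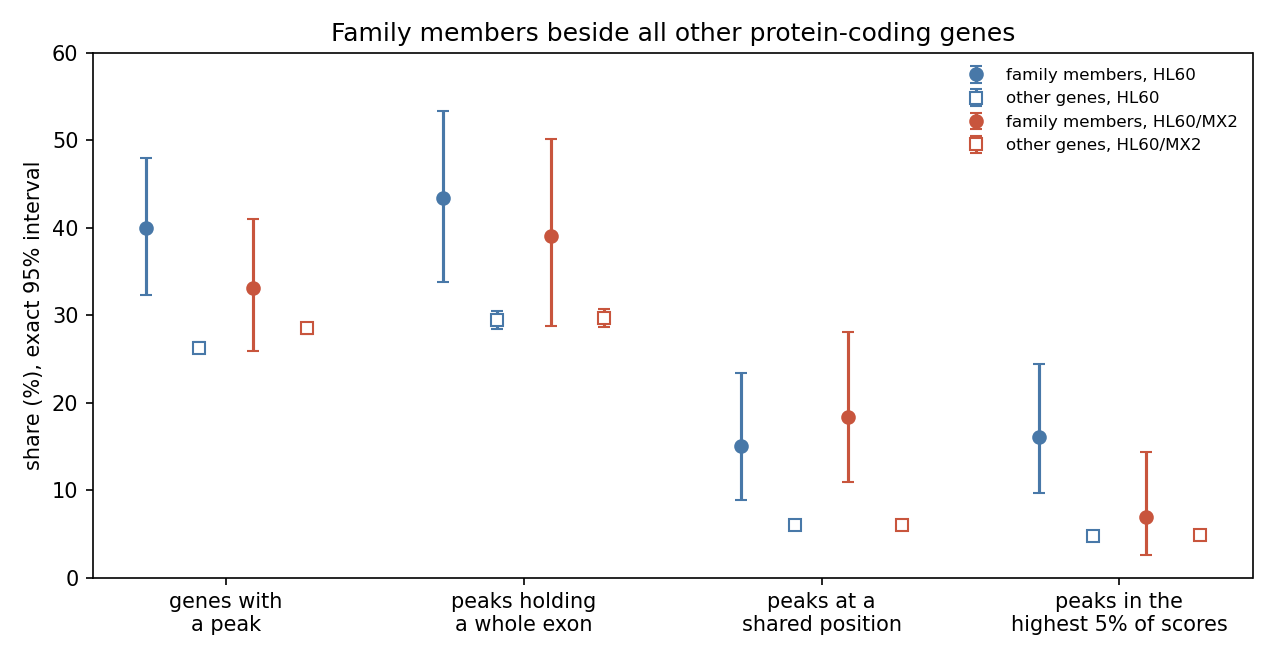
Shares in percent, with exact 95% intervals as bars, of genes with a peak, peaks holding a whole exon, peaks at a shared position and peaks in the highest 5% of scores, for family members (filled) and the other protein-coding genes (open) in HL60 and HL60/MX2. At shared positions both member intervals, from 8.88% and 10.9%, lie above the other genes at 6.04% and 5.99%, while the HL60/MX2 intervals reach the other genes in each of the other measures.

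Repeated sequence was counted as the share of 50-base words of a peak that occur at more than 1 place of hg19, on either strand, in peaks of at least 50 bp. In HL60, 83 of 89 member peaks had at least 50% of their words repeated (93.3%, 85.9 to 97.5), beside 5.3% of all listed peaks. In HL60/MX2, 79 of 82 did (96.3%, 89.7 to 99.2), beside 5.22%. Every word was repeated in 67 peaks (75.3%) and 65 peaks (79.3%). Other listed peaks with as much repeated sequence were shared in 8.46% of cases in HL60 (5.44 to 12.4) and 7.58% in HL60/MX2 (4.75 to 11.4), and those without a repeated word in 5.93% and 5.90%. Of those in a gene, 36.0% (29.7 to 42.6) and 35.8% (29.6 to 42.3) held a whole exon. These intervals hold the 33.7% and 33.8% of other peaks without a repeated word. Other peaks with as much repeated sequence lay in the highest 5% of scores in 12.9% and 10.8%, where those without a repeated word did in 4.59% and 4.79%. Member peaks with as much repeated sequence lay in the highest 5% in 18.1% of cases in HL60 (10.5 to 28.0) and 7.59% in HL60/MX2 (2.84 to 15.8). They held a whole exon in 47.0% (35.9 to 58.3) and 40.5% (29.6 to 52.1), and were shared in 15.7% (8.61 to 25.3) and 16.5% (9.06 to 26.5). How reads that match several places were treated is not given in the sources used here, and the part of repeated sequence in the families' shares was not tested.

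**Figure D4:**
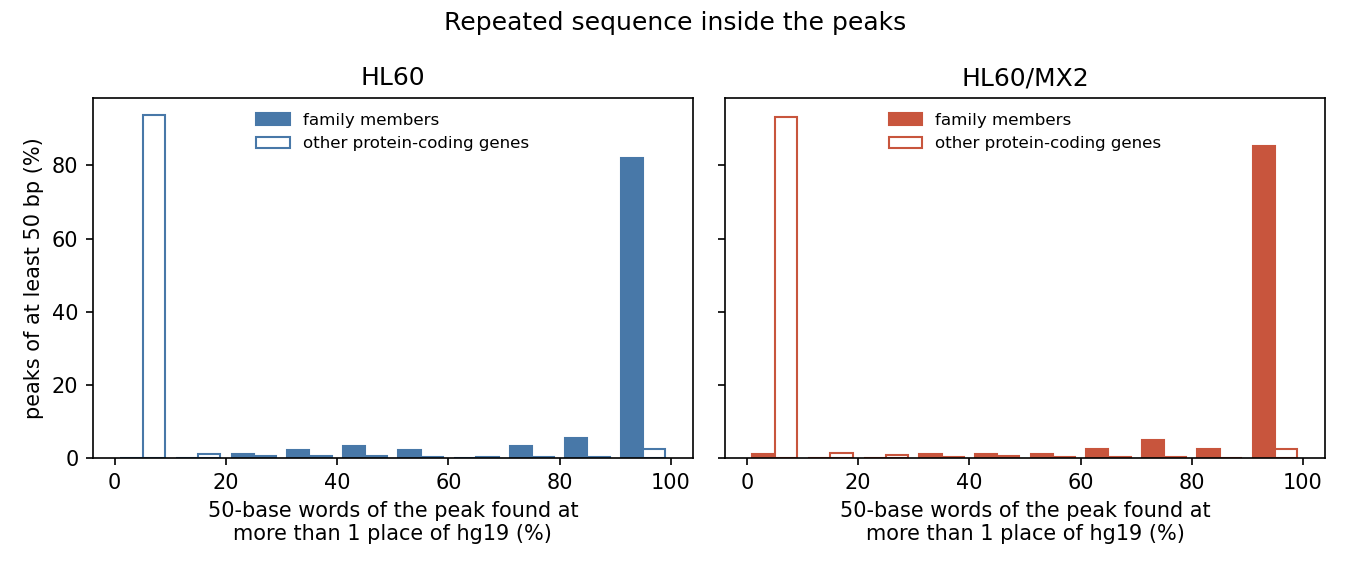
Peaks of at least 50 bp, in percent of the peaks of their group, by the percent of their 50-base words found at more than 1 place of hg19, for family members (filled) and other protein-coding genes (open) in HL60 and HL60/MX2. Most member peaks stand in the last bin and most others in the first, with 67 of 89 and 65 of 82 member peaks made wholly of repeated words.

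Repeated sequence also linked member peaks at different positions within a list. In HL60, 29 of 98 member peaks of at least 30 bp (29.6%) had another member peak with at least 90% identity over its full length, in 20 pairs, and 9 pairs were identical. In HL60/MX2, 29 of 84 did (34.5%), in 28 pairs, of which 11 were identical. Most pairs joined different members, but some joined peaks within NBPF20, including an identical pair in each list. Identical sequence did not give equal scores in HL60, where the higher score of a pair was 1.21 to 10.5 times the lower, with a median of 3.12. NPIPB15 scored 252.34 and NPIPB7 2642.37 over the same 196 bases, USP17L18 scored 270.78 and USP17L19 1802.71 over the same 311, and NPIPA5 and NPIPA8 were both high, at 1280.75 and 1928.6. The widest gap was between NBPF12 at percentile 4.31 and NBPF1 at percentile 88.1, over 40 bp.

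In HL60/MX2 the ratios ran from 1 to 3.85 with a median of 1.16. POTEB2 and POTEB both scored 267.24 over 87 bp, RGPD1 and RGPD2 scored 246.37 and 252.6 over 180 bp, and RGPD6 and RGPD5 scored 150.02 and 156.03 over 478 bp. The GOLGA8 stretch scored 218.93, 254.44 and 277.11 in GOLGA8J, GOLGA8T and GOLGA8H. The GOLGA6L exon was unequal, at 494.82 in GOLGA6L1, 1770.76 in GOLGA6L24 and 1906.62 in GOLGA6L26. Pairs within a list share a library and sequence, and different pairs can share a peak, so these ratios are descriptions. As the scale of the scores is not stated, the ratios cannot be read as fold differences in enrichment.

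**Figure D5:**
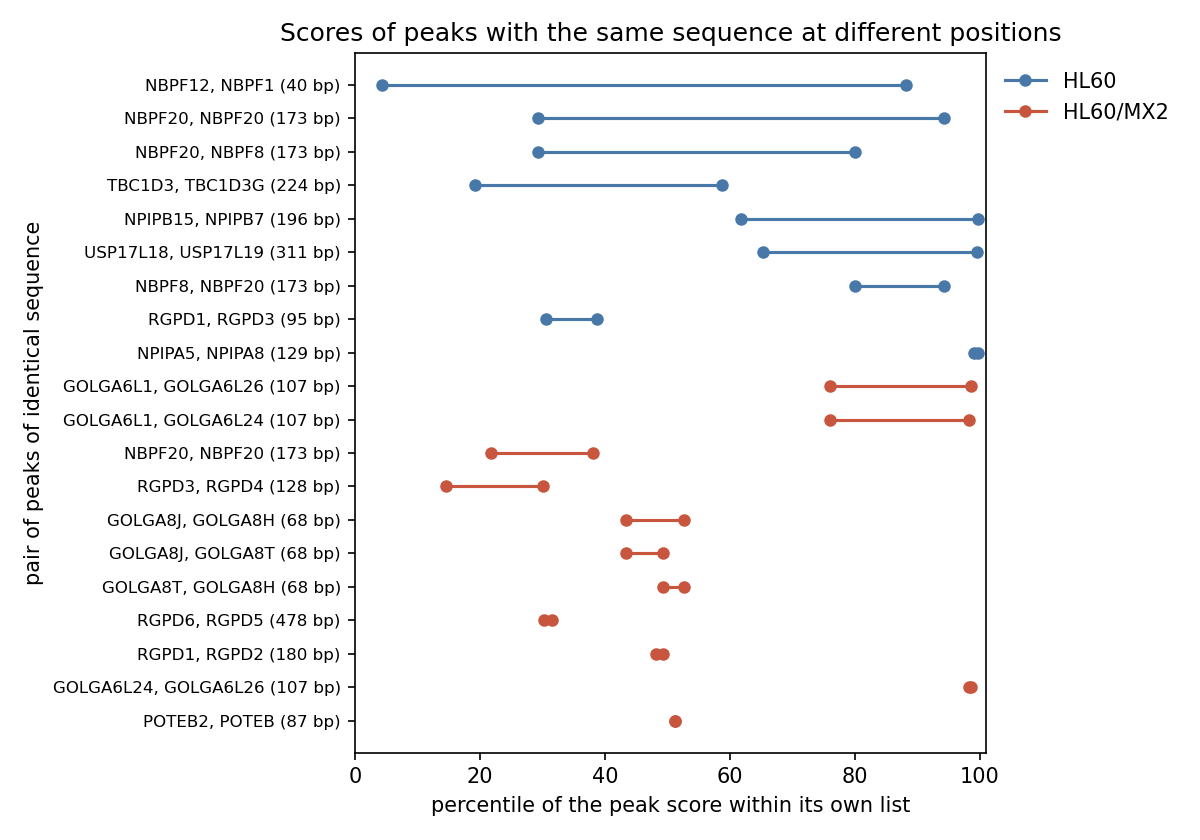
Score percentiles of the lower and higher peak of each pair of member peaks with identical sequence, 9 pairs in HL60 and 11 in HL60/MX2. The HL60 pairs lie 0.607 to 83.8 percentile points apart, with a median of 38.0, and the HL60/MX2 pairs 0 to 22.6, with a median of 6.02.

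Sequence was also compared between the lists. Of the 89 HL60 member peaks of at least 50 bp, 13 (14.6%) shared a 50-base word with an HL60/MX2 peak at the same position and a further 18 (20.2%) only with a peak in another copy, which together made 34.8% (25.0 to 45.7). Of 82 in HL60/MX2, 13 (15.9%) and 23 (28.0%) did, together 43.9% (33.0 to 55.3). The largest example was 517 bp of NPIPA8 in HL60 (219.99), identical to a peak of NPIPA7 in HL60/MX2 (1191.28). NBPF8 in HL60 (280.25) and NBPF11 in HL60/MX2 (961.39) likewise shared an exon of 52 bp. The genes of such peaks are uncertain, since a peak in one copy could come from reads of another. Exons of 15 members overlap those of another member, such as TBC1D3G with TBC1D3H and POTEB with POTEB3, and 1 member peak in HL60 and 5 in HL60/MX2 overlapped another member by as many bases. A gene outside the families was overlapped equally by 3 member peaks in HL60, all of NPIPB7, and by 2 in HL60/MX2, of NPIPB7 and NBPF10.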

How the data were processed

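The labels give an enriched and an input library of each cell line (4 libraries); the peaks of both enriched libraries (2 lists) were analysed. The authors trimmed reads with cutadapt 1.9.3, aligned them to hg19 with HISAT2 2.0.4, called peaks with MACS (version and settings not given in the sources used here) and kept those that overlap protein-coding exons. The deposited score of each peak has no stated scale. Genes came from GENCODE release 44 on hg19 (chromosome 1 of 249250621 bp). Equal overlaps went to a gene with a symbol, then in alphabetical order. The mRNA region was that of the longest coding transcript. Members and lists were chosen with earlier results of these data known. All members with a peak were named; those peaked or shared in both lists, in the highest or lowest 5% of scores, or with most peaks of their family were described with values. The identity measure for copies and the choice of sequences were added after seeing the data. Steps used Python 3.11.15, numpy 2.4.6, scipy 1.17.1, edlib 1.3.9.post1 and matplotlib 3.10.9, and were tested on simulated data. Alternatives covered scores, assignment, strand, overlap, exons and word length.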

Additional observations from a re-analysis of the deposited data

How the results depend on the processing

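Of 100 recomputed values over 14 results, 90 stayed within their spread. With only peaks at or above the median score of their list, members with a peak numbered 41 in HL60 and 35 in HL60/MX2, their peaks 62 and 41, and the median percentiles were 85.5 and 81.4, by construction. Shared positions, for which both peaks of a pair then had to pass, fell to 6.45% and 9.76%, beside 3.79% and 3.77% of all such peaks, which their intervals hold. Repeated peaks in HL60 were 99.0% with words of 30 bases and 84.7% with words of 100 bases, beside 7.35% and 4.00% of all listed peaks. No paired analysis was possible because each cell line has 1 enriched library and no result comes from a test. Leaving out a replicate could not be tried for the same reason. The number of peaks limits the precision, and the depth is unknown.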
